A study of Mus musculus with 6 samples.

Results

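The oligos described here are DNA sequences of 16 bases that carried 4 adjacent mismatches to a Gli binding site and matched it at the other 12 positions. The reference was the most frequent base at each position of a table of 1266 sequences. A member differed from it at every position of 1 of 5 overlapping windows, which cover positions 1 to 4, 4 to 7, 7 to 10, 10 to 13 and 13 to 16, counted from 1 at the first base as listed. With 3 other bases possible at each of 4 positions, a window has 81 such sequences. All of them were in the table, so 405 of the 1266 sequences were members. The choice used the sequences only and no read count.

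The study mixed recombinant mouse Gli protein (Gli1 in the titles) with libraries of double-stranded DNA in vitro. DNA that ran with the protein (bound) and free DNA (unbound) were cut from an electrophoretic mobility shift gel, amplified by PCR and sequenced, in 3 binding reactions with 1 bound and 1 unbound sample each. The table of 16-base sequences gives 1 bound and 1 unbound read count per sequence. Its heading names neither the reaction nor a methylation state, although the labels list both unmethylated libraries and libraries treated with the CpG methyltransferase M.SssI, so the methylation state behind each count cannot be told apart. No reaction was repeated. Differences therefore have no replicate check, and every standard error (SE) on a ratio or its log covers counting error only.

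Gli proteins are the transcription factors at the end of the Hedgehog signalling pathway. They bind DNA through a row of C2H2 zinc fingers, and single fingers can contact short stretches of bases along the site. The consensus site of the family reads gaccaccca, and the reference carried it at positions 1 to 9, followed by 7 further bases.

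The sequences below show the reference and, for each window, the member with the highest, the middle and the lowest bound to unbound ratio. They show which bases were exchanged and how different the exchanged bases could be within a window. Capitals mark the mismatches.
Reference: gaccacccaagatgaa
Window 1 to 4, highest: TGAGacccaagatgaa
Window 1 to 4, middle: TGGTacccaagatgaa
Window 1 to 4, lowest: CTTTacccaagatgaa
Window 4 to 7, highest: gacACAAcaagatgaa
Window 4 to 7, middle: gacTCGAcaagatgaa
Window 4 to 7, lowest: gacTGAAcaagatgaa
Window 7 to 10, highest: gaccacAGGCgatgaa
Window 7 to 10, middle: gaccacTGGTgatgaa
Window 7 to 10, lowest: gaccacTTTTgatgaa
Window 10 to 13, highest: gaccacccaCCGCgaa
Window 10 to 13, middle: gaccacccaTCCGgaa
Window 10 to 13, lowest: gaccacccaTATAgaa
Window 13 to 16, highest: gaccacccaagaCCCG
Window 13 to 16, middle: gaccacccaagaGTTG
Window 13 to 16, lowest: gaccacccaagaAATC

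In the 16-base table, exchanging 4 bases inside the first 7 positions lowered the median bound to unbound ratio most, and exchanging positions 7 to 10 lowered it less. Exchanging 4 bases beyond position 9 left the median close to the reference in this table only. In another reaction, described below, members of windows 10 to 13 and 13 to 16 had medians 7.96-fold and 15.1-fold below its reference. The reference had 8450 bound and 236 unbound reads, a ratio of 35.7 with a counting SE of 0.07 on the natural log scale. The ratio is a ratio of reads, after 0.5 was added to each count, and it was not scaled for the unequal depth of the fractions (2101584 bound and 291875 unbound reads). Only its relative size within the table can therefore be read. The median ratio of the 81 members was 1.04 for window 1 to 4, 0.490 for window 4 to 7, 4.03 for window 7 to 10, 43.2 for window 10 to 13 and 35.4 for window 13 to 16. Against the reference, these medians were 34.3-fold lower, 73.0-fold lower, 8.87-fold lower, 1.21-fold higher and 1.01-fold lower.

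On the natural log scale the medians relative to the reference were -3.53 ± 0.07, -4.29 ± 0.07, -2.18 ± 0.07, 0.19 ± 0.07 and -0.01 ± 0.07 (counting SE, mostly that of the reference). The falls of the first 3 windows thus exceeded counting error by far, the small rise of window 10 to 13 was 2 to 3 times its SE, and window 13 to 16 lay within it. Summing the reads of all members of a window gave the same order. The pooled ratios were 1.08 (95% counting interval 1.07 to 1.10), 0.491 (0.483 to 0.498), 4.58 (4.52 to 4.63), 46.9 (45.5 to 48.2) and 38.8 (37.7 to 39.9).

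Every member passed the minimum of 10 reads in each fraction. A member was called lower or higher than the reference when the difference exceeded 2 counting SE. Of all 1263 sequences besides the reference that passed the minimum, members included, 62.9% were called lower and 9.5% higher. In each of the windows 1 to 4, 4 to 7 and 7 to 10, 81 of 81 members were lower. In window 10 to 13, 5 members were lower, 31 were higher and 45 were neither, and in window 13 to 16 the numbers were 10, 13 and 58. With 3 counting SE required, the lower calls of these last windows dropped to 1 each. The higher calls dropped to 18 and 5, a check of the higher calls that was added after the data were seen. Sequences more than 10-fold below the reference made up 37.1% of the same 1263 sequences, members included. They comprised 81 of 81 members in windows 1 to 4 and 4 to 7, 36 of 81 in window 7 to 10, and 0 in windows 10 to 13 and 13 to 16.

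The ranges of neighbouring windows overlapped. Ratios ran from 0.688 to 1.99 in window 1 to 4, from 0.321 to 1.36 in window 4 to 7, from 1.252 to 25.4 in window 7 to 10, from 20.8 to 101 in window 10 to 13 and from 21.0 to 66.2 in window 13 to 16. No member of the first pair of windows reached the lowest member of the last pair. Among all pairs of 1 member from window 1 to 4 and 1 from window 4 to 7, the member of window 4 to 7 was lower in nearly all. The exceptions, in which the member of window 1 to 4 was lower, were 2.36% of 6561 pairs. The pooled ratio of window 4 to 7 was 0.453 times that of window 1 to 4 (0.443 to 0.463). Windows 10 to 13 and 13 to 16 overlapped almost wholly. The pooled ratio of the latter was 0.827 times that of the former (0.794 to 0.862). These windows are also sets of separately listed oligos, and a difference in preparation between libraries and a difference between windows cannot be told apart in this table.

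The same 4 bases gave different ratios when they stood in different windows. No stretch of 4 bases was a mismatch in all 5 windows, and TTGG was among those that were members in 4 of them. The bases put in were then the same. The place of the exchange, the bases beside it and any difference in library preparation still cannot be told apart.
TTGG in window 1 to 4: TTGGacccaagatgaa
TTGG in window 4 to 7: gacTTGGcaagatgaa
TTGG in window 7 to 10: gaccacTTGGgatgaa
TTGG in window 10 to 13: gaccacccaTTGGgaa
At positions 1 to 4 TTGG gave 675 bound and 536 unbound reads, a ratio of 1.26. At positions 4 to 7 it gave 292 and 847 reads, a ratio of 0.345. At positions 7 to 10 it gave 1451 and 573 reads, a ratio of 2.53. At positions 10 to 13 the counts were 5656 and 159, and the ratio of 35.5 differed from the reference by -0.01 ± 0.10. These 4 ratios stood in the same order as the medians of their windows. GTGG, a member in every window but 1 to 4, had ratios of 0.434 at positions 4 to 7, 5.55 at 7 to 10, 58.6 at 10 to 13 and 61.6 at 13 to 16.

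Of the 54 stretches shared by windows 1 to 4 and 4 to 7, 1 had the higher ratio in window 4 to 7, and the median change from the former to the latter was 0.443-fold. Of the 36 shared by windows 10 to 13 and 13 to 16, 3 were higher in the latter. Across those 36 stretches the log ratios in the 2 windows had r = 0.642, against r = -0.139 over the 54 stretches of the first pair. These correlations are across oligos of 1 pair of libraries and describe this table only.

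Window 1 to 4 covers the 5′ end of the consensus site. Its members were uniformly weak and spread over only a 2.89-fold range. The highest, TGAGacccaagatgaa, had 530 bound and 266 unbound reads, a ratio of 1.99, and still lay 17.9-fold below the reference. TGGGacccaagatgaa followed with 1048 and 592 reads and a ratio of 1.77. The lowest were CTTTacccaagatgaa, with 277 and 403 reads and a ratio of 0.688, and TTGAacccaagatgaa, with 335 and 474 reads and a ratio of 0.707. The lowest pair therefore lay 52.0-fold and 50.5-fold below the reference.

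The SD of the log ratio over the 81 members was 0.23, against a median counting SE of 0.08, so part of the spread exceeded counting error. G was the most favourable substitute at positions 2 and 4. The log ratio of members with G at position 2 averaged 0.20 ± 0.22 (SD, n = 27), while C gave 0.03 and T gave -0.09. Members with G at position 4 had 0.22 ± 0.21, against -0.05 for A and -0.03 for T. At position 3 the 3 bases lay within 0.03 to 0.08. The 9 members with G at both positions 2 and 4 had a median ratio of 1.63, from 1.14 to 1.99, against 1.003 for the other 72, from 0.688 to 1.42. They included 6 of the 9 highest members. The bases of this group were chosen after their values were seen, for their high means among the same members. A higher median therefore follows largely from the choice.

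Window 4 to 7 spans the centre of the consensus site and gave the weakest members. The lowest, gacTGAAcaagatgaa, had 142 bound and 444 unbound reads, a ratio of 0.321, which was 111-fold below the reference. For gacTGAGcaagatgaa the counts were 212 and 661 and the ratio was also 0.321. The highest, gacACAAcaagatgaa, had 285 and 210 reads and a ratio of 1.36, or 26.3-fold below the reference, followed by gacACTAcaagatgaa with 247 and 249 reads and a ratio of 0.992. The 25th and 75th percentiles were 0.421 and 0.553, close to the median of 0.490.

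At position 5 of this window C gave the highest values in place of A. The log ratio averaged -0.52 ± 0.28 (SD, n = 27) for C, -0.75 for T and -0.82 for G. At position 7 the substitute A had -0.55 ± 0.30, against -0.74 for T and -0.81 for G. At position 6 the means of A, G and T were -0.69, -0.70 and -0.70, which differ by far less than the SD of each group, 0.15 to 0.32. The 9 members with C at position 5 and A at position 7 had a median ratio of 0.741, against 0.468 for the other 72, and included 7 of the 9 highest. The range of these 9 was 0.490 to 1.36 and overlapped that of the rest, 0.321 to 0.769. These bases were likewise chosen for their high means among the same members, so the group is no separate support for them.

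Window 7 to 10 covers the 3′ end of the consensus site and the base after it, and its members varied most. Ratios spanned 20.3-fold, and the SD of the log ratio was 0.79 against a median counting SE of 0.06. The highest, gaccacAGGCgatgaa, had 4352 bound and 171 unbound reads, a ratio of 25.4, only 1.41-fold below the reference. Second came gaccacAGGGgatgaa with 5390 and 227 reads and a ratio of 23.7. At the other end gaccacTTTTgatgaa had 491 and 392 reads, a ratio of 1.252, and gaccacTTTCgatgaa had 526 and 413 reads, a ratio of 1.27. These lay 28.5-fold and 28.1-fold below the reference, near the values of window 1 to 4.

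The base at position 7 separated these members. With A there the log ratio averaged 2.32 ± 0.45 (SD, n = 27), corresponding to a ratio of 10.2, whereas T gave 1.12 ± 0.58 and G gave 0.99 ± 0.51, ratios of 3.07 and 2.69. At position 9, G had 1.94 ± 0.71, against 1.26 for T and 1.23 for C. Members with A at position 7 ranged from 3.75 to 25.4, those with G from 1.43 to 7.30 and those with T from 1.252 to 11.6. The 9 members with A at position 7 and G at position 9 had a median ratio of 15.8, from 7.86 to 25.4, against 3.48 for the other 72, and included 7 of the 9 highest. Here too the bases were chosen for their high means among the same members, so the group is no separate support for them.

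Window 10 to 13 lies beyond the consensus site. The highest member, gaccacccaCCGCgaa, had 2564 bound and 25 unbound reads, a ratio of 101, which was 2.81-fold above the reference (1.03 ± 0.21 on the log scale). With 2114 and 24 reads, gaccacccaCCCGgaa had a ratio of 86.3. The lowest, gaccacccaTATAgaa, had 925 and 44 reads, a ratio of 20.8 and a log difference from the reference of -0.54 ± 0.17. For gaccacccaTACAgaa the counts were 877 and 40 and the ratio was 21.7. Unbound reads ran from 12 to 159 per member here, and the median counting SE was 0.14, so neighbours in the order often did not differ beyond counting error.

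C was the best substitute at position 10. Its log ratios averaged 4.002 ± 0.29 (SD, n = 27), those of G 3.86 and those of T 3.53. At position 11, C had 3.96, against 3.72 for A and 3.71 for T. G at position 12 had 3.94 and G at position 13 had 3.93, the highest at their positions. The 9 members with C at position 10 and G at position 12, bases chosen after their values were seen, had a median ratio of 62.0. The other 72 had 42.5 and reached 86.3. Only 3 of the 9 highest members were in this group. The members rose with the number of G and C among the 4 bases. Median ratios were 22.7 for 0 (n = 2), 31.2 for 1 (n = 13), 38.8 for 2 (n = 30), 55.9 for 3 (n = 28) and 74.4 for 4 (n = 8).

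Window 13 to 16 lies at the 3′ end of the listed sequence and, in the 16-base table, had the median closest to the reference. The highest member, gaccacccaagaCCCG, had 2416 bound and 36 unbound reads, a ratio of 66.2 and a log difference of 0.62 ± 0.18. Close to it, gaccacccaagaGCGG had 9065 and 138 reads and a ratio of 65.5. The lowest, gaccacccaagaAATC, had 618 and 29 reads, a ratio of 21.0 and a log difference of -0.53 ± 0.20. For gaccacccaagaAACT the counts were 652 and 30 and the ratio was 21.4. At position 13 the log ratio was highest with G, on average 3.74 ± 0.25 (SD, n = 27), and lowest with A, 3.38 ± 0.22, and at position 14 it was highest with C, 3.76. The 9 members with G at position 13 and C at position 14, also chosen after their values were seen, had a median ratio of 50.3. The other 72 had 34.5 and reached 66.2. Only 2 of the 9 highest members were in this group. Here too ratios rose with G and C, from a median of 25.3 with 0 (n = 2) and 26.0 with 1 (n = 13) to 46.05 with 3 (n = 28) and 52.6 with 4 (n = 8).

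The slope of the log ratio per G or C was 0.28 ± 0.02 in window 10 to 13 and 0.24 ± 0.02 in window 13 to 16 (regression SE across members). In windows 1 to 4, 4 to 7 and 7 to 10 it was 0.08 ± 0.03, -0.01 ± 0.03 and 0.05 ± 0.09. Whether the slopes of the last windows come from binding or from recovery of the DNA was not tested.

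Putting back a single reference base showed at which positions of a window the reference base raised the ratio most. For each member, its ratio was compared with that of the sequence with 3 mismatches in which 1 position again held the reference base. In window 1 to 4, C at position 4 raised the ratio by a median 2.91-fold and C at position 3 by 1.70-fold, while G at position 1 gave 1.36-fold and A at position 2 gave 1.15-fold (81 comparisons at each position). At each position of every window the 81 comparisons share 27 sequences with 3 mismatches, so they are not independent. In window 4 to 7, C at position 4 gave 5.24-fold, C at position 6 gave 2.45-fold and C at position 7 gave 1.54-fold. A at position 5 had a median factor of 0.906. The log gain at position 4 ran from 0.23 to 2.89 over the 81 comparisons, that at position 5 from -1.17 to 0.53 and that at position 6 from 0.06 to 3.30. Position 4 belongs to both windows and had the largest median gain in each, while the largest single gain of window 4 to 7 was at position 6.

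In window 7 to 10, C at position 7 raised the ratio by a median 6.46-fold, C at position 8 by 1.90-fold and A at position 9 by 1.47-fold, and A at position 10 had a factor of 0.946. With C back at position 7, the median ratio of the 27 sequences was 24.8. The same base gave 1.54-fold in window 4 to 7, where positions 4 to 6 remained exchanged, so the gain at position 7 differed between the 2 sequence contexts. Beyond the consensus site, gains in the 16-base table were small. G at position 11 gave 1.504-fold and G at position 14 gave 1.35-fold, and each of the other 6 reference bases of windows 10 to 13 and 13 to 16 had a factor under 1, from 0.715 at position 10 to 0.904 at position 12.

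The sequences with 3 mismatches and the highest ratio of their window show the largest ratio reached with 1 base put back. They are printed because each differs from a full set of 4 mismatches by a single reference base, shown in lower case between or beside the capitals.
Window 1 to 4 with position 4 restored: CGAcacccaagatgaa
Window 4 to 7 with position 6 restored: gacTGcAcaagatgaa
Window 7 to 10 with position 7 restored: gaccaccGGGgatgaa
CGAcacccaagatgaa had 1144 bound and 129 unbound reads, a ratio of 8.84. For gacTGcAcaagatgaa the counts were 1848 and 212 and the ratio was 8.70. In contrast, gaccaccGGGgatgaa had 6791 and 140 reads and a ratio of 48.3, above the reference. The best sequences of windows 1 to 4 and 4 to 7 thus stayed far below the reference ratio of 35.7. They are extremes of their groups. With the same position restored, the median ratio was 2.51 in window 1 to 4, 1.09 in window 4 to 7 and 24.8 in window 7 to 10.

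Median ratios fell with each added mismatch in the first 3 windows. In window 1 to 4 the median was 12.997 with 1 mismatch (n = 12), 3.35 with 2 (n = 54), 1.61 with 3 (n = 108) and 1.04 with 4. In window 4 to 7 it was 11.7, 3.86, 0.768 and 0.490, and in window 7 to 10 it was 27.1, 21.2, 8.55 and 4.03. With 3 mismatches, the medians of windows 1 to 4 and 4 to 7 were already 22.3-fold and 46.5-fold below the reference. The lowest ratios changed little from 3 to 4 mismatches. With 1 to 4 mismatches they were 4.13, 1.13, 0.758 and 0.688 in window 1 to 4. In window 4 to 7 they were 4.13, 0.407, 0.291 and 0.321. Whether this flattening limits the comparison with sums of single mismatches below was not tested. In window 10 to 13 the medians were 37.3, 36.3, 40.4 and 43.2, and in window 13 to 16 they were 28.0, 30.1, 32.6 and 35.4.

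The loss from 4 mismatches was set against the sum of the log changes of the 4 single mismatches, which were measured on other sequences. In window 1 to 4 the single mismatches summed to a median fall of 56.2-fold, ranging from 14.6-fold to 279-fold. The measured falls ran from 17.9-fold to 52.0-fold only. The measured log ratio lay above the sum by a median of 0.54 ± 0.23 (counting SE of 12 single mismatches and the reference), and in 58 of 81 members. With the 2 adjacent double mismatches in place of the 4 single ones, this difference was smaller, 0.35. Sums and measured values had r = 0.024 across members, so the single mismatches did not rank the members of this window.

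In window 4 to 7 the sums ran from 15.2-fold to 293-fold and the measured falls from 26.3-fold to 111-fold, with r = 0.246. Its median difference of 0.14 ± 0.23 lay within counting error, and it was 0.36 against double mismatches. It was 0.65 when at least 100 reads were also required of each single mismatch. That minimum removed A5C, A5T, C6A and C7A, so 0.65 covers only the members without those bases. C6A and C7A had the smallest falls at their positions, 3.64-fold and 1.17-fold. The value of 0.65 is therefore not a stricter result for the same members. Window 7 to 10 went the other way. Its single mismatches summed to a median fall of 3.70-fold, against a measured 8.87-fold, and the measured log ratio lay below the sum by a median difference of -0.84 ± 0.24, in 76 of 81 members. Among its single mismatches C7T lowered the ratio 2.84-fold, C7G 2.61-fold, C8G 1.80-fold and A9T 1.46-fold, while A10C raised it to 61.3 and C7A, at -0.16 ± 0.13, lay within 2 counting SE. With the 2 adjacent double mismatches in place of the 4 single ones, the difference in window 7 to 10 was -0.37. Beyond the consensus site the median difference was 0.32 ± 0.24 in window 10 to 13, within 2 counting SE. It was 0.64 ± 0.24 in window 13 to 16, where the members lay above the sums. Sums and measured values had r = 0.750 and 0.667 across members. Against double mismatches the median differences of these windows were 0.13 and 0.18, so the excess in window 13 to 16 was not kept.

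An additive model of base by position, fitted to the 81 members of a window, accounted for 64.8% of the variance in window 1 to 4, 56.7% in window 4 to 7, 84.2% in window 7 to 10, 75.8% in window 10 to 13 and 73.0% in window 13 to 16. Its residual SD was 5.24 times the median counting SE in window 7 to 10, 2.28 and 1.89 times in windows 4 to 7 and 1 to 4, and 1.22 and 1.09 times in windows 10 to 13 and 13 to 16. The residual SD itself was 0.14, 0.18, 0.33, 0.17 and 0.16 in the order of the windows. The median counting SE was 0.14 in each of the last windows, against 0.08, 0.08 and 0.06 in the first 3. The low multiples of the last windows thus go with their larger counting error. Variation beyond single bases of the size seen in windows 1 to 4 and 4 to 7 could not be resolved there. Window 7 to 10 held the most.

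Some members carried a CpG, counted within the exchanged bases or at their junction with a fixed base. In window 7 to 10 the 51 members with a CpG had a median ratio of 3.37, against 5.47 for the 30 without. All 27 members with G at position 7 have such a CpG with the C at position 6. Among members with A at position 7, the 12 with a CpG had a median ratio of 11.4 and the 15 without had 9.24, and among those with T the medians were 3.13 and 2.84. The lower value of the CpG members in this window was therefore not present within the members with A or T at position 7. In windows 10 to 13 and 13 to 16 the members with a CpG had median ratios of 50.1 (n = 42) and 45.99 (n = 18), against 40.4 (n = 39) and 34.5 (n = 63) without, but they also hold more G and C. Among members with 2 G or C, the median log ratio was 3.55 with a CpG (n = 12) and 3.71 without (n = 18) in window 10 to 13, and 3.47 (n = 3) and 3.50 (n = 27) in window 13 to 16, so the CpG members were not higher there.

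The exchanged bases can also place a stretch like the consensus in another register or on the other strand. The best match to the 9 consensus bases elsewhere in the 16 bases was counted on both strands, without the bases that flank the listed sequence. In window 1 to 4 the 33 members with 5 of 9 matches had a median ratio of 1.18, against 0.924 for the 48 with 4. In window 4 to 7 the 42 members with 4 matches had 0.478 and the 39 with 3 had 0.513. In window 7 to 10 the medians were 3.08 with 3 matches (n = 2), 3.75 with 4 (n = 45), 4.34 with 5 (n = 30) and 4.56 with 6 (n = 4), and the last group, from 2.04 to 7.53, lay within the range of the rest. In window 10 to 13 they were 35.9 with 3 matches (n = 13), 42.4 with 4 (n = 35), 45.6 with 5 (n = 24), 47.5 with 6 (n = 8) and 60.9 for the 1 member with 7. In window 13 to 16 they were 35.001 with 4 (n = 78) and 45.6 with 5 (n = 3). The medians thus rose with the number of matches in each window but 4 to 7, with overlapping ranges and some very small groups. The number of G and C was not held equal between these groups. A match of this kind is a description of the letters and not a binding site.

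The members of windows 10 to 13 and 13 to 16 were also measured in the R4-R6 reaction, whose table lists 7 bases read as positions 10 to 16. All 162 were found there, and their values stood far apart from those of the 16-base table. In the R4-R6 reaction the reference had 3292 bound and 898 unbound reads, a ratio of 3.66. The members of window 10 to 13 had a median ratio of 0.460, from 0.103 to 3.49, which was 7.96-fold below that reference. Those of window 13 to 16 had a median of 0.243, from 0.102 to 0.596, which was 15.1-fold below it. Of 507 sequences of that block besides the reference, members included, 95.9% were called lower than the reference and 1.97% higher. Among the members, 80 of 81 in window 10 to 13 and 81 of 81 in window 13 to 16 were lower and 0 were higher, shares near those of the whole block.

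The same oligos show the gap between the tables. In the R4-R6 reaction gaccacccaCCGCgaa had 789 bound and 266 unbound reads and lay 1.24-fold below the reference, while it was 2.81-fold above it in the 16-base table. There gaccacccaagaCCCG had 121 and 1011 reads and lay 30.5-fold below the reference, while it was 1.85-fold above it in the 16-base table. The highest member of window 13 to 16 in the R4-R6 reaction, gaccacccaagaGTTT, had 877 and 1471 reads and was still 6.14-fold below the reference. Across the 81 members of each window, the log ratios of the 2 tables had r = 0.193 for window 10 to 13 and 0.010 for window 13 to 16. The characteristics of that reaction's samples name mouse Gli as the protein but describe DNA libraries named for CTCF, another zinc finger protein, in conflict with the titles and headings. Reading its values as Gli bound to the same oligos rests on the latter, and neither table has a repeat. What sets the tables apart was not tested.

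Base preferences of these members matched between the tables at some positions and differed at others. C was the best substitute at position 10 in both. In the R4-R6 reaction its log ratios averaged -0.02 ± 0.72 (SD, n = 27), those of G -1.05 and those of T -1.19. In window 13 to 16, G was the best substitute at position 13 in both, with -0.98 ± 0.26 in the R4-R6 reaction, against -1.42 for A and -1.73 for C. In window 10 to 13, however, G at position 13 had the lowest mean at that position in the R4-R6 reaction, -1.27 ± 0.62, and the highest in the 16-base table. C at position 12 had the lowest mean in the R4-R6 reaction, -1.35 ± 0.61, against -0.53 for T and -0.37 for G. There T was lowest in the 16-base table, and G was highest in both. At position 11, A was highest in the R4-R6 reaction, -0.55, and C in the 16-base table. In window 13 to 16, T was highest at positions 14, 15 and 16 in the R4-R6 reaction, with -1.12, -1.19 and -1.31. In the 16-base table C was highest at position 14 and G at positions 15 and 16, where T was lowest. The slope per G or C was -0.03 ± 0.10 for window 10 to 13 and -0.09 ± 0.05 for window 13 to 16 in the R4-R6 reaction (regression SE), without the rise seen in the 16-base table.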

How the data were processed

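For each sequence the authors deposited a whole-number count of bound reads and one of unbound reads, per the file headers. The deposited ratio is the bound count over the unbound count, and an unnamed deposited column is minus its natural log. How reads were counted and filtered is not given in the sources used here. The relative binding of a sequence was the natural log of bound over unbound counts, with 0.5 added to each, and at least 10 reads were required in each fraction. Its counting SE was taken from the reciprocals of these values, as the root of their sum. The members' reads numbered 615861 bound and 122772 unbound. Reads amplified by PCR and lacking molecular identifiers are not independent molecules, so SEs and intervals reflect counting error alone. There is no p-value, since there was 1 library per fraction. Oligos named with their sequence were the 2 highest, the 2 lowest and the middle member of each window, and others shown were chosen after their values were seen. The members and comparisons were chosen with earlier results of these data known. The R6 methylation table was not used here, since its 3-base sequences hold no member. The calculation was tested on simulated data. Python 3.11.15, numpy 2.4.6 and pandas 2.3.3 were used. Alternatives covered the pseudocount, the count minimum, the summary, the centre, CpG members, the call and the weights.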

Additional observations from a re-analysis of the deposited data

Results flagged for a closer look

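Of the 1266 sequences, 2 had mismatches that fit inside none of the 5 windows and so entered no comparison. One had 3 mismatches, with 44 bound reads and 1 unbound read, and the other had 4 mismatches that were not adjacent, with 53 bound reads and 1 unbound read. Their bound counts lie above the 3 reads that a count of 0 allows, and their unbound counts are too low for a ratio.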

How the results depend on the processing

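Of 104 recomputed values, 82 moved by at most 1.96 times their SE or, for counts of calls, by at most 1.5 times, and 22 moved by more, with no change of direction among differences beyond 2 counting SE. Centred on the median of all sequences in place of the reference, the window medians were -2.47, -3.23, -1.12, 1.25 and 1.05 in the order of the windows, so the distances between windows stayed the same. With at least 100 reads in each fraction, only 6 members of window 10 to 13 and 12 of window 13 to 16 remained. The median of window 10 to 13 was then 0.35, lower calls were 0 and 1 in these windows, the difference from single mismatches in window 4 to 7 was 0.65, and the medians in the R4-R6 reaction were -2.71 and -2.44. That minimum left no value for the difference from single mismatches in the other windows, nor for the base contrast of window 10 to 13. In window 4 to 7 it also removed single mismatches with fewer reads, so the difference of 0.65 covers only part of the members. With 3 counting SE, lower calls were 1 in each of the last windows and higher calls 18 and 5, the latter added after the data were seen. Without members holding a CpG, the median of window 7 to 10 was -1.88. Without the 5 members with the most reads, pooled ratios were 1.03, 4.19 and 45.2 in windows 1 to 4, 7 to 10 and 10 to 13. With double in place of single mismatches, the difference in window 7 to 10 was -0.37. Those in windows 1 to 4 and 13 to 16 fell from 0.54 to 0.35 and from 0.64 to 0.18. Weighted means put C over G at position 5 at 0.24 (0.30 unweighted) and A over G at position 7 at 1.23 (1.33 unweighted). Unbound reads of 12 to 161 per member limit windows 10 to 13 and 13 to 16. No paired analysis was possible because each reaction has 1 bound and 1 unbound library and the table names no replicate.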
